A study of Mus musculus with 4 samples.

Results

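The genes of the MHC class II presentation pathway and their transactivator were examined in bulk RNA-seq of CD24+ emergency progenitors (EPs) from mouse spleen. The set was chosen by gene symbol, with earlier results of these data known, and holds 10 of the 40213 symbols in the count tables: the classical chains *H2-Aa*, *H2-Ab1* and *H2-Eb1*, the invariant chain *Cd74*, the peptide-loading chains *H2-DMa*, *H2-DMb1* and *H2-DMb2*, the loading modulators *H2-Oa* and *H2-Ob*, and the transactivator *Ciita*. All 10 passed the filter on low counts. There were 2 libraries from WT mice and 2 labelled TopBP1cKO, in which CD11c-cre was crossed to *Topbp1* fl/fl, so that the deletion depends on where and when the CD11c promoter is active. The study names *Topbp1* fl/fl littermates as the WT control of its tumor experiments, whereas the labels of these libraries say only WT. Whether floxed alleles were common to both groups here is therefore not given. The study prints the transgene as Itgae-cre, although CD11c is encoded by *Itgax*. Mice of both groups were 7–10 weeks old, and all of them received Flt3L-Ig i.p., 10 µg on day 0 and 10 µg on day 3. Flt3L-Ig carries the growth factor Flt3 ligand, which expands DC progenitors. Splenic EPs, which are CD11c+CD117+ cells, were collected by sorting on day 9. The strain is given for the Cre line, which is B6, whereas that of the *Topbp1* fl/fl mice is not given in the sources used here. The markers named for the sort do not include MHC class II, so that the gate could hold cells with and without it on their surface, and the study compares the groups to learn what the loss of TopBP1 changes in these cells. Whether a library came from 1 mouse or from pooled mice is not given either, so that P values measure the spread between these samples only.

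MHC class II molecules are heterodimers of an α and a β chain that carry peptides from internalized proteins to CD4+ T cells. In the ER they bind the invariant chain, which is cut down in endosomes until a short stub called CLIP is left in the groove, and H2-DM exchanges CLIP for peptides while H2-O restrains H2-DM. CIITA does not bind DNA by itself but docks on factors at the X and Y boxes of class II promoters, and dendritic cells, B cells and interferon-γ-treated cells start *Ciita* from different promoters. DC progenitors have little class II on the surface and gain it as they become cDCs.

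The promoter sequences are shown first because class II genes are recognized by the X and Y boxes that they have in common. The RefSeq table of promoter windows (GRCm38.p6, 250 bases before to 50 bases after each start) held 8 windows for 7 of the 10 genes, with none for *H2-Ab1*, *Cd74* and *Ciita*. Capitals mark TGATTGG, a core of the Y box bound by NF-Y, and AGNAAC followed after any 2 bases by ATG, a core of the X box bound by the RFX complex. Both letter runs were settled on after these windows had been seen, were searched for on both strands and did not overlap each other in the windows shown. Each sequence is given 5′ to 3′ on the strand of its gene, which is the minus strand for *H2-Aa* and the plus strand for the others, and covers 62 bases.
H2-Aa: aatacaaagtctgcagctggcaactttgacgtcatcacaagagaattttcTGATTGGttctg
H2-Eb1: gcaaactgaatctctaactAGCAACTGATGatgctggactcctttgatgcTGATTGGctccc
H2-DMb1: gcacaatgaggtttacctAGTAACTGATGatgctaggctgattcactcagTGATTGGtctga
H2-DMb2: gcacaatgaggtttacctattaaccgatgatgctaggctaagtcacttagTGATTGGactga
H2-Oa: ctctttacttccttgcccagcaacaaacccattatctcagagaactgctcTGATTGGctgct
H2-Ob: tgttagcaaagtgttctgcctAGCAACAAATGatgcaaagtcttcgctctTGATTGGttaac

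The windows lie at chr17:34287862-34287923 for *H2-Aa*, chr17:34305756-34305817 for *H2-Eb1*, chr17:34153078-34153139 for *H2-DMb1*, chr17:34145107-34145168 for *H2-DMb2*, chr17:34092284-34092345 for *H2-Oa* and chr17:34238796-34238857 for *H2-Ob*. TGATTGG stood in the promoters of 6 of the 7 genes, beginning from 45 bases upstream of the start in *H2-Oa* to 92 in *H2-DMb2*, whereas 7.82% of all 32851 windows held it. The X letters stood in 3 of the 7 and in 0.895% of all windows. They were followed by the Y letters within 40 bases in 4 windows of the whole table (0.0122%), those of *H2-DMb1*, *H2-Eb1*, *H2-Ob* and *H2-Eb2*, and 21, 20 and 18 bases lay between them in the first 3. The windows of *H2-DMb1* and *H2-DMb2*, neighbouring copies of the β chain of H2-DM, were identical at 56 of 62 positions. Neither of the windows of *H2-DMa* held either letter run. A match describes letters only, and a window without one may hold an X or Y box in other letters. *H2-DMb2* had no X letters although its window was so close to that of *H2-DMb1*. Since both runs were settled on after these windows had been seen, the shares over all windows do not test an enrichment.

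Class II transcripts made up 3.80% and 4.06% of all counts in the WT libraries, 3.88% in TopBP1cKO replicate 1 and 2.91% in TopBP1cKO replicate 2. Counts were scaled to CPM by the TMM effective size of each library, and levels of different genes were compared only as CPM per kb of the main transcript. In the mean of the WT libraries, *Cd74* was highest with 14023 CPM per kb, followed by *H2-Ab1* with 7451, *H2-Aa* with 5510 and *H2-Eb1* with 3347. After a gap of more than 10-fold came *H2-DMb1* with 273 CPM per kb and *H2-DMa* with 263, which lay as close to each other (264 and 262 against 266 and 279 in the WT libraries) as the WT libraries did for *H2-DMb1*. *Ciita* had 156 CPM per kb, *H2-Ob* 104 and *H2-Oa* 101, and *H2-DMb2* was lowest with 66.8. *H2-Ob* and *H2-Oa* differed by little more than the WT libraries did, and changed places in TopBP1cKO replicate 2, with 62.3 and 63.0 CPM per kb. Such levels depend on the transcript taken for the length.

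**Figure D1:**
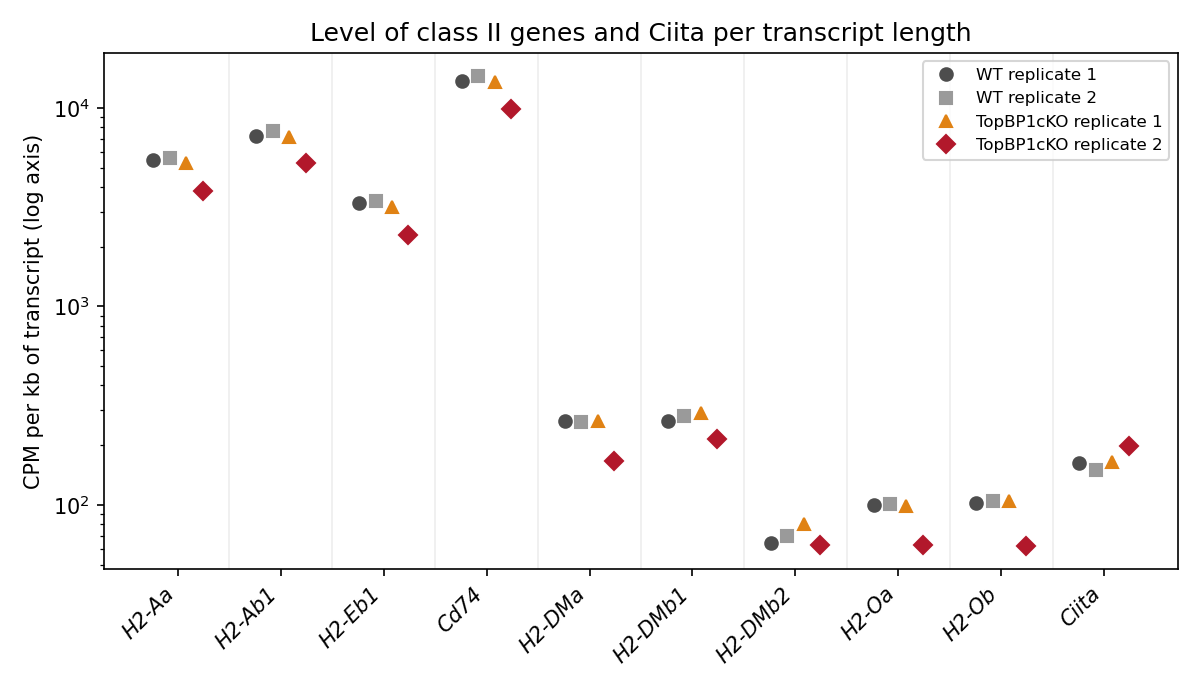
CPM per kb of the main transcript (log axis) for the 10 genes, with 1 point per library. The classical chains and *Cd74* lie between 2303 and 14402, and the other genes between 62.3 and 292.

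Counts of *Topbp1*, the gene targeted for deletion, were 1102 and 1143 in WT, 773 in TopBP1cKO replicate 1 and 1279 in TopBP1cKO replicate 2 (log2 fold change −0.20, SE 0.21, FDR 0.774 by edgeR). The log2 fold change was −0.61 without TopBP1cKO replicate 2 and 0.11 without TopBP1cKO replicate 1. Since *Topbp1* counts were lower than in WT in TopBP1cKO replicate 1 but not in TopBP1cKO replicate 2, the group is called by its label throughout. Which part of the gene the counts cover was not analysed. TopBP1cKO replicate 2 also stood apart across all genes: the chi-square per degree of freedom between libraries was 11.9–14.4 among the other 3 and 38.7–47.6 between it and each of them. The EP markers *Itgax*, *Kit*, *Flt3* and *Cd24a* were detected in all 4 libraries at 383–972 CPM. Of the 4, 0 passed FDR < 0.05 and 1 an unadjusted P value of 0.05, which 10.7% of all genes passed. This was *Kit*, with 481 and 475 CPM in WT, followed by 395 and 383 (P 0.036, FDR 0.436 by edgeR). In both libraries labelled TopBP1cKO, 3 of the 4 were below both WT libraries (20.8% of all genes) and 1 was above both (22.8%). *Xcr1*, a receptor of cDC1s, had 734 and 753 CPM in the WT libraries and 626 and 701 CPM in those labelled TopBP1cKO, in a sort that the labels name by CD24 and not by XCR1. Values without TopBP1cKO replicate 2 are given beside the fold changes of the 10 genes and beside the medians of the gene lists.

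Of the 10 genes, 0 differed between the groups at FDR < 0.05 (edgeR quasi-likelihood test, Benjamini–Hochberg adjustment over 12393 genes), against 0.105% of all genes tested, 0.0807% higher and 0.0242% lower. The count was also 0 at an unadjusted threshold of 0.05, which 10.7% of all genes passed (6.95% higher, 3.77% lower), and it was 0 at FDR < 0.05 with the DESeq2 Wald test (1.11% of all genes) and with limma-voom (0.105%). The log2 fold change was below 0 for 8 genes and above 0 for *Ciita* and *H2-DMb2*, with SEs from 0.15 to 0.22 and FDRs from 0.609 to 0.856. The median over the 10 genes was −0.27 and that over all genes tested 0.0084. In both libraries labelled TopBP1cKO, 5 of the 10 genes were below both WT libraries, which held for 20.8% of all genes, 1 was above both (22.8%) and 4 overlapped, so that 6 of the 10 had groups apart, against 43.6% of all genes. With the library totals in place of TMM, a scaling added after the values were seen, 2 genes remained apart, *H2-Eb1* and *Ciita*. The share over all genes was not counted under that scaling.

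The difference from WT was mostly that of a single library. TopBP1cKO replicate 1 held 94.4% to 120% of the WT mean over the 9 genes other than *Ciita*, and TopBP1cKO replicate 2 held 60.0% to 94.2%. All 9 were lowest in TopBP1cKO replicate 2, as were 35.0% of all genes, and *Ciita* was highest there, as were 34.8%. Summed CPM over the 10 genes were 39079 and 40839 in the WT libraries, 38546 in TopBP1cKO replicate 1 and 28362 in TopBP1cKO replicate 2, which gave 39959 ± 1245 and 33454 ± 7201 (SD, n = 2 each). An exact two-sided permutation test gave P = 0.333, the smallest that 2 against 2 allows. In bulk RNA, fewer class II-expressing cells and less class II RNA per cell cannot be told apart.

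**Figure D2:**
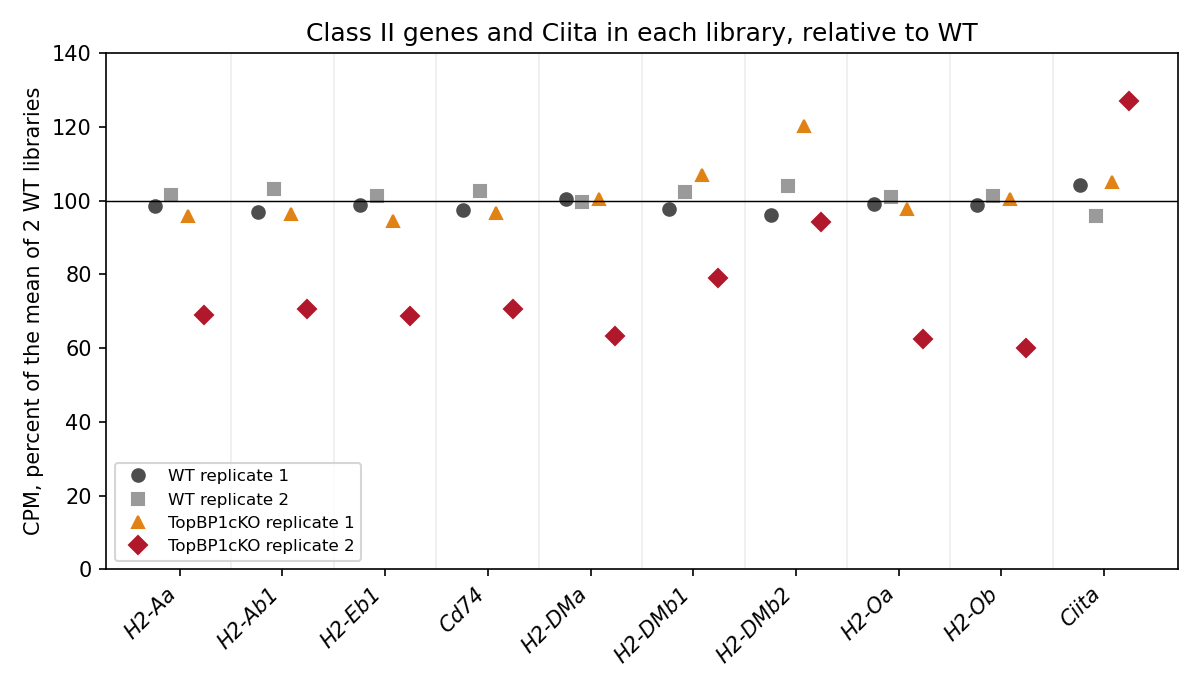
CPM of each gene in each library as a percent of the mean of the 2 WT libraries (line at 100). TopBP1cKO replicate 1 stays within 94.4% to 120% for all 10 genes, whereas TopBP1cKO replicate 2 is at 60.0% to 79.0% for 8 of them, at 94.2% for *H2-DMb2* and at 127% for *Ciita*.

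The classical chains form I-A, the product of *H2-Aa* (α) and *H2-Ab1* (β), and I-E, whose β chain is *H2-Eb1*. *H2-Aa* had 6130 and 6300 CPM in the WT libraries, 5953 in TopBP1cKO replicate 1 and 4285 in TopBP1cKO replicate 2. *H2-Ab1* had 8749 and 9312 CPM in WT, followed by 8691 and 6382. *H2-Eb1* had 5522 and 5651 CPM in WT, followed by 5276 and 3843. All 3 were below both WT libraries in both libraries labelled TopBP1cKO, but the gap of TopBP1cKO replicate 1 to the nearest WT library was smaller than the distance between the WT libraries for *H2-Ab1* and about the same for *H2-Aa*. Their log2 fold changes were −0.28, −0.26 and −0.29 (SE 0.20, 0.21 and 0.20, FDR 0.665, 0.693 and 0.638 by edgeR). Without TopBP1cKO replicate 2 the values were −0.071, −0.064 and −0.091.

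The α chain of I-E, *H2-Ea*, had 0 counts in every library, which allows at most 0.194 to 0.212 CPM (3 counts). C57BL/6 mice are known to carry an *H2-Ea* allele that is not transcribed, so that their *H2-Eb1* transcript has no α chain to pair with. *H2-Eb2*, a further β-chain gene of the locus whose promoter held the X and Y letters, was present at a low level, with 130 and 128 counts in WT, 157 in TopBP1cKO replicate 1 and 195 in TopBP1cKO replicate 2. The log2 fold change came to 0.38 (SE 0.21, FDR 0.583 by edgeR), above 0 where those of *H2-Aa*, *H2-Ab1* and *H2-Eb1* were below 0. Of the 31-base sequences of *H2-Eb1*, 0.854% were also found in *H2-Eb2*.

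*Cd74* encodes the invariant chain, the chaperone that fills the class II groove in the ER. It had 16701 and 17628 CPM in the WT libraries, 16585 in TopBP1cKO replicate 1 and 12109 in TopBP1cKO replicate 2. The log2 fold change came to −0.26 (SE 0.22, FDR 0.715 by edgeR) and to −0.058 without TopBP1cKO replicate 2. The count tables list 2 transcripts of *Cd74*, of which the longer, NM_001042605, encodes the p41 form with a thyroglobulin-like domain that binds cathepsin L. It took 18.0% and 17.7% of the *Cd74* counts in WT, 17.7% in TopBP1cKO replicate 1 and 18.4% in TopBP1cKO replicate 2, so that the split between the isoforms moved by less than 1 percentage point over the 4 libraries. This share rests on how reads common to both transcripts were assigned.

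The proportions among the classical chains and the invariant chain moved much less than their levels. The ratio of *Cd74* to *H2-Ab1*, per kb, was 1.89 and 1.87 in the WT libraries, 1.89 in TopBP1cKO replicate 1 and 1.88 in TopBP1cKO replicate 2, although both genes were at about 71% of the WT mean in the last library. That of *H2-Aa* to *H2-Ab1* was 0.753 and 0.727 in WT, followed by 0.736 and 0.721. That of *H2-Eb1* to *H2-Ab1* was 0.458 and 0.441 in WT, followed by 0.441 and 0.437. The groups overlapped for all 3 ratios. Ratios within a library do not depend on its scaling.

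H2-DM is the heterodimer of *H2-DMa* and either copy of *H2-DMb*. *H2-DMa* had 438 and 434 CPM in the WT libraries, 438 in TopBP1cKO replicate 1 and 276 in TopBP1cKO replicate 2. *H2-DMb1* had 374 and 392 CPM in WT, followed by 409 and 303. *H2-DMb2* had 91.4 and 98.9 CPM in WT, followed by 114 and 89.6. TopBP1cKO replicate 1 was within the WT range for *H2-DMa* and above it for both *H2-DMb* copies, and TopBP1cKO replicate 2 was below the WT range for all 3. Log2 fold changes were −0.29 for *H2-DMa* (SE 0.21, FDR 0.660 by edgeR), −0.11 for *H2-DMb1* (SE 0.16, FDR 0.856) and 0.10 for *H2-DMb2* (SE 0.15, FDR 0.847). Without TopBP1cKO replicate 2 they were −0.0013, 0.088 and 0.26, which turned the sign of *H2-DMb1*, and without TopBP1cKO replicate 1 that of *H2-DMb2* turned to −0.088.

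The copies of *H2-DMb* share much of their sequence, as their promoters do. Of the 31-base sequences of *H2-DMb1*, 37.6% were found in *H2-DMb2*, and 37.1% of those of *H2-DMb2* in *H2-DMb1*, so that how their counts were divided is uncertain. *H2-DMb2* took 19.7% and 20.1% of the counts of both copies in WT, 21.9% in TopBP1cKO replicate 1 and 22.9% in TopBP1cKO replicate 2. The log2 fold change of the copies merged into 1 gene was −0.062 (SE 0.16, FDR 0.926 by edgeR). The β to α ratio of H2-DM, per kb and over both copies, was 1.25 and 1.33 in WT, 1.41 in TopBP1cKO replicate 1 and 1.67 in TopBP1cKO replicate 2, the highest value being that of the library in which *H2-DMa* was lowest. The groups did not overlap, and the exact P was 0.333, the smallest possible. Among the transcripts of *H2-DMb2*, NM_010388.5 held 67.2% and 61.0% of its counts in WT and 74.9% and 71.9% in the libraries labelled TopBP1cKO, and the rest lay almost entirely on the noncoding NR_160896.1.

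H2-O, made of *H2-Oa* and *H2-Ob*, binds H2-DM and is best known from B cells and some DCs. *H2-Oa* had 109 and 111 CPM in the WT libraries, 107 in TopBP1cKO replicate 1 and 68.6 in TopBP1cKO replicate 2. *H2-Ob* had 274 and 280 CPM in WT, followed by 278 and 166. Both were therefore at about the WT level in 1 library labelled TopBP1cKO and at 62.5% and 60.0% of it in the other, and 60.0% was the lowest value of the 10 genes. Log2 fold changes were −0.32 for each (SE 0.20 and 0.22, FDR 0.609 and 0.647 by edgeR), and −0.043 and −0.0019 without TopBP1cKO replicate 2. The ratio of *H2-Ob* to *H2-Oa*, per kb, was 1.03 in both WT libraries, 1.06 in TopBP1cKO replicate 1 and 0.988 in TopBP1cKO replicate 2. *H2-Oa* stood to *H2-DMa* at 0.378 and 0.389 in WT, 0.372 in TopBP1cKO replicate 1 and 0.379 in TopBP1cKO replicate 2, so that these α chains kept nearly the same proportion. The β chains did not. *H2-Ob* stood to both copies of *H2-DMb* at 0.310 and 0.301 in WT, followed by 0.280 and 0.224. The groups did not overlap for this β ratio, and the exact permutation P was 0.333, the smallest possible.

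*Ciita*, the transactivator on which class II transcription depends, did not follow the other genes. It had 690 and 633 CPM in the WT libraries, 694 in TopBP1cKO replicate 1 and 840 in TopBP1cKO replicate 2. TopBP1cKO replicate 1 exceeded the higher WT library by less than 1%, and TopBP1cKO replicate 2 was at 127% of the WT mean. The log2 fold change was 0.21 (SE 0.15, FDR 0.644 by edgeR) and was 0.060 without TopBP1cKO replicate 2. Set against its targets, *Ciita* had 18.6 and 16.3 counts per 1000 counts of *H2-Aa*, *H2-Ab1*, *H2-Eb1* and *Cd74* in WT, 19.0 in TopBP1cKO replicate 1 and 31.6 in TopBP1cKO replicate 2. The means were 17.4 ± 1.65 in WT and 25.3 ± 8.88 in the libraries labelled TopBP1cKO (SD, n = 2 each), with an exact P of 0.333, the smallest possible.

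*Ciita* transcripts were then grouped by the start of their first exon, through their match to GENCODE vM21 models (GRCm38). The most upstream start, by its position that of promoter I used in DCs, had 259 and 208 CPM in WT, 241 in TopBP1cKO replicate 1 and 341 in TopBP1cKO replicate 2. The middle start, 8.22 kb downstream and by position that of promoter III used in B cells and pDCs, had 181 and 107 counts in WT, followed by 293 and 304. The downstream start, 9.72 kb from the first and by position that of the interferon-γ-responsive promoter IV, had 73 and 29 counts in WT, followed by 43 and 117. The upstream start held 93.5% and 95.8% of the counts with a matched start in WT and 91.6% and 92.6% in the libraries labelled TopBP1cKO.

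The middle start was the group of *Ciita* transcripts with the largest difference. Its counts, 107 to 304 per library, rest on how reads common to several *Ciita* transcripts were assigned. Both libraries labelled TopBP1cKO were above both WT libraries, and the log2 fold change was 0.97 (SE 0.28, unadjusted P 0.0083 and FDR 0.337 by edgeR). It passed the unadjusted threshold of 0.05, as did 10.7% of all genes in the main fit, but not FDR < 0.05. For the upstream start it was 0.32 (SE 0.19, FDR 0.593 by edgeR), for the downstream start 0.56 (SE 0.57, FDR 0.766) and for the transcripts with no matched start 0.12 (SE 0.12, FDR 0.758). The last group, most of it the predicted model XM_036159756.1, took 59.9% and 65.8% of the *Ciita* counts in WT and 62.2% and 56.1% in the libraries labelled TopBP1cKO, so that most *Ciita* counts lay on models without a match in the GENCODE set. With each transcript as its own feature, 0 of the 25 tested transcripts of the 10 genes passed FDR < 0.05 in edgeR and 0 the unadjusted threshold, against 0 and 6.82% of all 29581 transcripts tested. The only transcript of the middle start, NM_007575.4, had an unadjusted P of 0.086 in this edgeR fit, from the same counts.

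**Figure D3:**
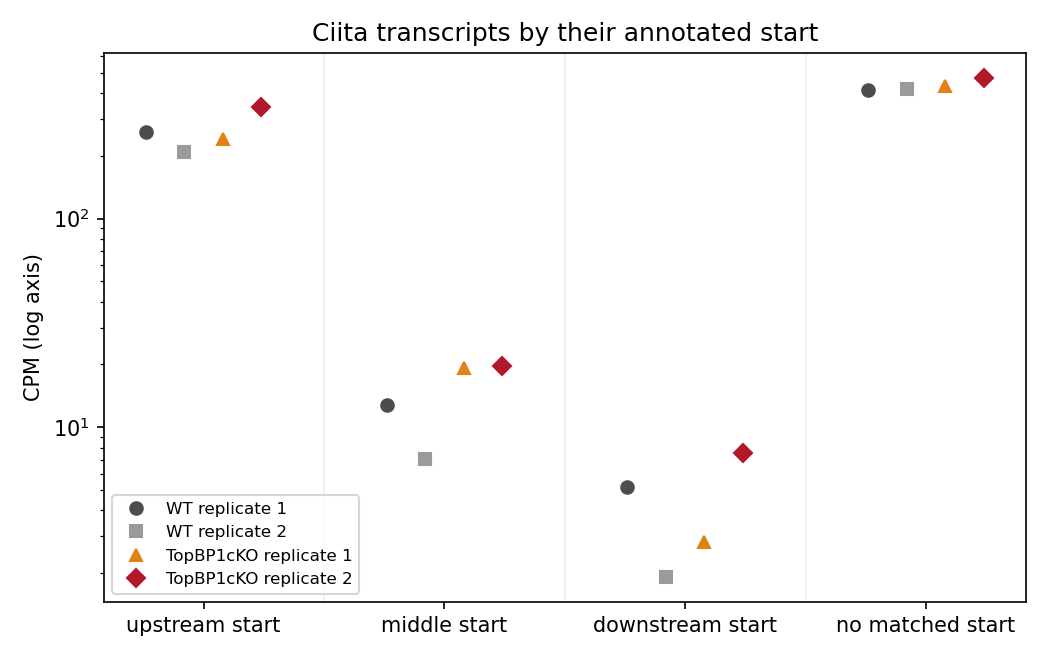
CPM (log axis) of *Ciita* transcripts grouped by annotated start, with 1 point per library. The upstream start exceeds the middle and downstream starts more than 10-fold in every library, and the middle start is higher in both libraries labelled TopBP1cKO (293 and 304 counts) than in WT (181 and 107 counts).

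Leaving out a library labelled TopBP1cKO changed what was called. Without TopBP1cKO replicate 1, 9 of the 10 genes passed FDR < 0.05 in edgeR, 8 of them lower and *Ciita* higher, in a comparison in which 2625 of 12788 genes were called (20.5%, with 11.2% higher and 9.33% lower). This fit sets 1 library against 2 and takes it that the lone library varies like the WT libraries, and it gave SEs of 0.0991 to 0.120. The median of the 10 genes was then −0.52, and *H2-Ob* was lowest with −0.74. Without TopBP1cKO replicate 2, 0 of the 10 genes passed, none with an FDR below 0.400, whereas 1.74% of all genes were called, and the median was −0.023.

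**Figure D4:**
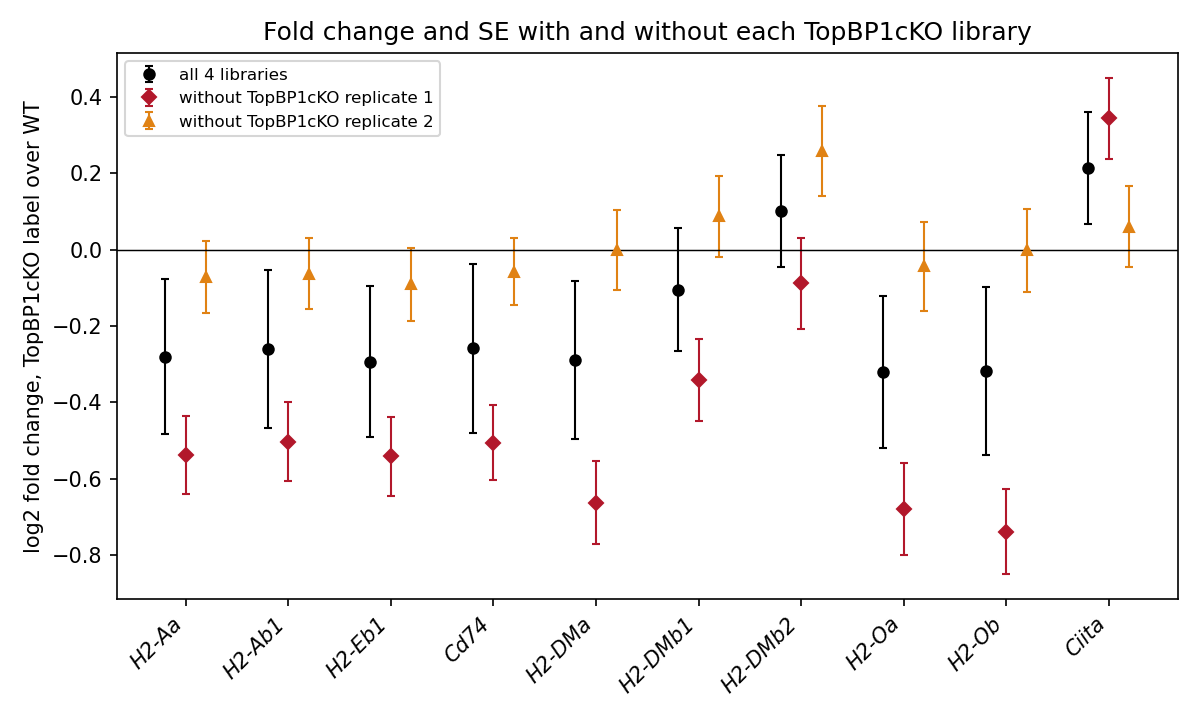
Log2 fold change (points) and SE (bars) of the libraries labelled TopBP1cKO over WT for the 10 genes, with all 4 libraries, without TopBP1cKO replicate 1 and without TopBP1cKO replicate 2. The values without TopBP1cKO replicate 1 run from −0.74 to −0.088 apart from *Ciita* at 0.34, and those without TopBP1cKO replicate 2 lie between −0.091 and 0.26.

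The factors that assemble on class II promoters were read next. *Rfx5*, *Rfxap* and *Rfxank* encode the RFX complex of the X box, *Creb1* its partner there, and *Nfya*, *Nfyb* and *Nfyc* the NF-Y complex of the Y box. Of these 7 genes, 0 passed FDR < 0.05 and 0 an unadjusted P value of 0.05, with a median log2 fold change of 0.013 (−0.081 without TopBP1cKO replicate 2). Of the 7, 2 were lowest in TopBP1cKO replicate 2, against 35.0% of all genes. Summed CPM were 519 and 513 in WT, 486 in TopBP1cKO replicate 1 and 536 in TopBP1cKO replicate 2. Those 2 were *Rfxap* and *Rfxank*. *Rfxank* had 14.5 and 15.4 CPM in WT, followed by 15.8 and 10.7, a pattern over the libraries like that of the class II genes, while *Rfxap* had 24.7 and 28.8, followed by 23.9 and 22.2. *Nfyb*, with 33.0 and 33.1 CPM in WT, followed by 29.9 and 44.0, was highest in that library. The lowest log2 fold change was that of *Rfxap* (−0.22, SE 0.16, FDR 0.669 by edgeR) and the highest that of *Nfyb* (0.16, SE 0.19, FDR 0.809), which turned to −0.15 without TopBP1cKO replicate 2.

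Among 7 genes known to act on *Ciita* or on class II expression in DCs, 0 passed FDR < 0.05 and 2 the unadjusted threshold of 0.05, which 10.7% of all genes passed. The median log2 fold change was −0.091 (−0.021 without TopBP1cKO replicate 2). *Irf8*, a TF of cDC1s, had 2442 and 2514 CPM in WT, 2456 in TopBP1cKO replicate 1 and 1933 in TopBP1cKO replicate 2, so that it was lowest in the same library as the class II genes (−0.18, SE 0.17, FDR 0.749 by edgeR). *Irf1*, an interferon-induced activator of *Ciita* promoter IV, had 208 and 215 CPM in WT, followed by 179 and 145 (−0.38, SE 0.13, FDR 0.380 by edgeR, 1 of the 2 past the unadjusted threshold). *Irf4*, a TF of cDC2s, had 16.7 and 18.9 CPM in WT, followed by 24.2 and 25.2 (0.47, SE 0.16, FDR 0.364 by edgeR, the other of the 2). *Spi1*, which encodes PU.1, stood at 0.053 on the log2 scale (SE 0.13, FDR 0.919 by edgeR) and at 0.14 without TopBP1cKO replicate 2. *Prdm1*, whose product represses *Ciita* in plasma cells, was near 2 CPM in every library.

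The genes that prepare peptides or move class II proteins were measured as 11 genes of a list of 12 names. None passed FDR < 0.05 or an unadjusted P value of 0.05, and the median log2 fold change was −0.085 (0.0090 without TopBP1cKO replicate 2). Of the 11, 6 were lowest in TopBP1cKO replicate 2, against 35.0% of all genes. Cathepsin S (*Ctss*), which trims the invariant chain, had 652 and 655 CPM in WT, 661 in TopBP1cKO replicate 1 and 521 in TopBP1cKO replicate 2. *Rab7b*, which encodes a GTPase of late endosomes, had 783 and 837 CPM in WT, followed by 791 and 630. *Marchf1*, the ubiquitin ligase that removes class II from the surface, had 435 and 416 CPM in WT, followed by 416 and 393, and its antagonist *Cd83* 106 and 97.0, followed by 89.5 and 91.1. The lowest log2 fold change was that of legumain, *Lgmn* (−0.27, SE 0.17, FDR 0.617 by edgeR, and −0.071 without TopBP1cKO replicate 2), and the highest that of cathepsin D, *Ctsd* (0.49, SE 0.27, FDR 0.566), which came from TopBP1cKO replicate 1 alone, with 28.4 CPM against 15.5 to 15.8 in the other libraries.

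The class I pathway, part of which lies within the class II locus, was compared as well. Of its 12 genes, 0 passed FDR < 0.05 and 1 the unadjusted threshold, which 10.7% of all genes passed. The median log2 fold change was −0.039 (0.029 without TopBP1cKO replicate 2), and the summed CPM were 8686 and 9154 in WT, 9212 in TopBP1cKO replicate 1 and 8904 in TopBP1cKO replicate 2. The chaperone calreticulin, *Calr*, had the highest value (0.40, SE 0.17, FDR 0.456 by edgeR), and *Tapbp*, which encodes tapasin, the lowest (−0.20, SE 0.13, FDR 0.635). Without TopBP1cKO replicate 2 they stood at 0.19 and −0.13. Of the 12, 6 were lowest in TopBP1cKO replicate 2, as were 35.0% of all genes, and 4 were highest there (34.8%). In that library the 12 ran from 77.2% (*H2-D1*) to 150% (*Calr*) of their WT means, so that the sum joins falls and rises. *Nlrc5*, the relative of *Ciita* that drives class I genes, had 175 and 183 CPM in WT, followed by 149 and 205. By RefSeq gene order, 6 tested genes that are no class II genes lie among the 8 of the set on chromosome 17: *Brd2*, *Psmb9*, *Tap1*, *Psmb8*, *Tap2* and *Gm20506*. Of these, 5 were lowest in TopBP1cKO replicate 2, as were 35.0% of all genes. Of the 6, 0 had an unadjusted P value below 0.05, and their log2 fold changes ran from −0.36 to 0.057 with a median of −0.13. *Gm20506* stood at −0.36, next to *H2-Ab1* in that order.

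Genes of mature DCs, which carry much class II on the surface, gave a median log2 fold change of 0.51 over 11 tested of 12, or 0.21 without TopBP1cKO replicate 2. Of the 11, 0 passed FDR < 0.05 and 3 had an unadjusted P value below 0.05, all 3 higher, against 6.95% of all genes. *Cd274*, encoding PD-L1, had 8.83 and 11.6 CPM in WT, followed by 15.5 and 25.9 (1.02, SE 0.28, FDR 0.315 by edgeR). *Fscn1* had 21.8 and 27.7 CPM in WT, followed by 29.6 and 43.4, and *Il4i1* 12.4 and 19.3, followed by 20.9 and 26.3. *Cd86*, a costimulatory ligand, had 274 and 266 CPM in WT, followed by 232 and 246. The lowest log2 fold change was that of *Ccl22* (−0.42, SE 0.25, FDR 0.598 by edgeR, and −0.77 without TopBP1cKO replicate 2).

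Several marker lists moved between the libraries beside the class II genes. The 10 cell cycle genes had summed CPM of 449 and 423 in WT, 545 in TopBP1cKO replicate 1 and 1566 in TopBP1cKO replicate 2, in which all 10 were highest. Of the 10, 0 passed FDR < 0.05 and 10 the unadjusted threshold, all of them higher, against 0.0807% and 6.95% of all genes. The library with the lowest class II counts was thus that with the highest cell cycle counts, which were at 359% of the WT mean. Neutrophil markers had summed CPM of 1546 and 1282 in WT and 3303 and 2497 in the libraries labelled TopBP1cKO. Of the 13, 6 passed FDR < 0.05, all of them higher, against 0.0807% of all genes. These were *Ltf*, *S100a8*, *S100a9*, *Lcn2*, *Ngp* and *Cd177*, and they were high in both libraries labelled TopBP1cKO, including the one with class II counts near WT. The primary granule genes of the same list, *Mpo*, *Elane* and *Prtn3*, went another way. They were above both WT libraries in TopBP1cKO replicate 1, where *Mpo* had 874 CPM, and below both in TopBP1cKO replicate 2, where it had 195 CPM against 598 and 423 CPM in WT, and their log2 fold changes ran from −0.0027 to 0.13 (FDR 0.962 to 0.998 by edgeR).

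The cDC1 markers, the lineage into which CD24+ EPs develop, had summed CPM of 11157 and 11094 in WT, 10885 in TopBP1cKO replicate 1 and 10170 in TopBP1cKO replicate 2. Of the 10, 0 passed FDR < 0.05 and 2 the unadjusted threshold, *Itgae* higher and *Cadm1* lower. At that threshold, 6.95% of all genes were higher and 3.77% lower. The cDC2 markers summed to 142 and 148 CPM in WT, followed by 195 and 273. Of the 9 tested, 0 passed FDR < 0.05 and 4 the unadjusted threshold, all 4 higher. B cells also express class II, and their 10 markers summed to 79.6 and 71.9 CPM in WT, followed by 90.5 and 91.0, with 0 of them past either threshold. Markers of pDCs (218 to 242 CPM), macrophages (184 to 223 CPM) and T cells (8.47 to 20.4 CPM) had 0 genes at FDR < 0.05 and 4, 2 and 1 past the unadjusted threshold. Of these, 2 of the pDC and 1 of the macrophage markers were lower, and the others were higher. No marker of these lists was at 0 in every library, and *Klk1* of the pDC list was at 0 in 3. The part of cell cycle, granulocyte and cDC2 transcripts in the class II values was not tested.

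**Figure D5:**
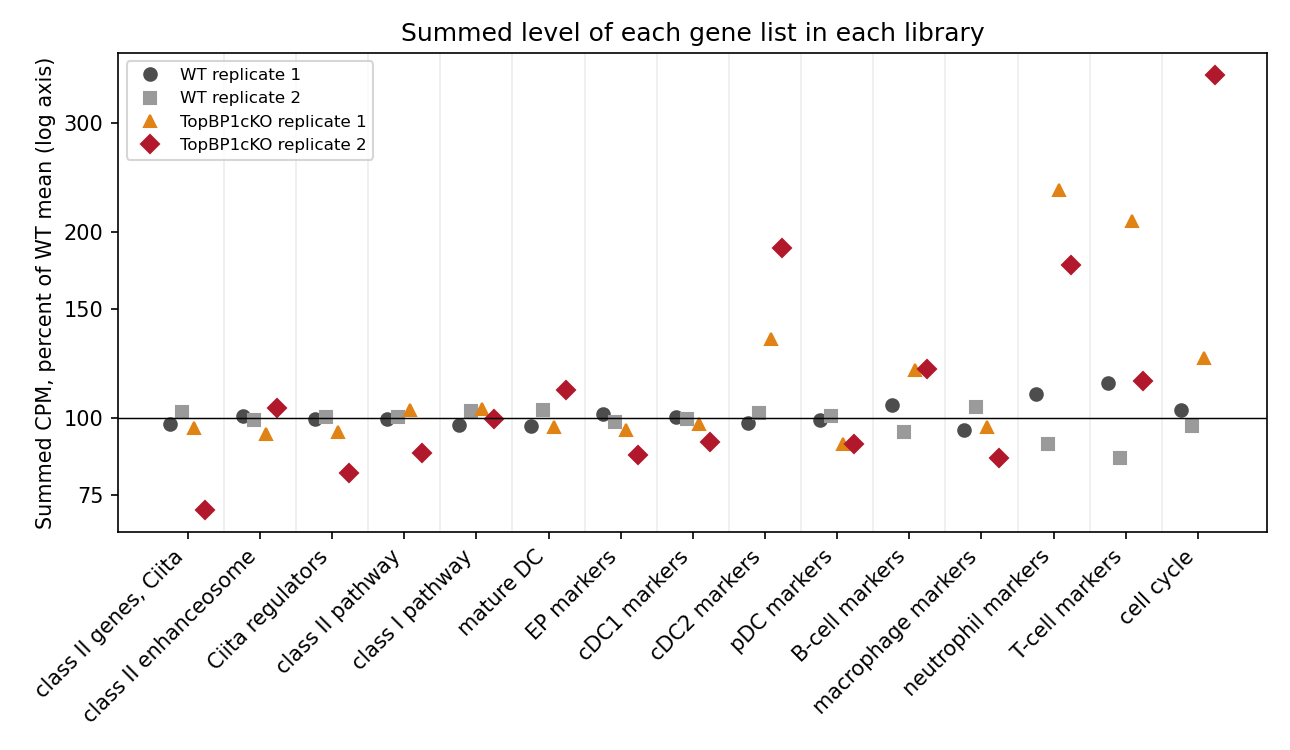
Summed CPM of each gene list in each library as a percent of the mean of the 2 WT libraries (log axis, line at 100). The class II genes with *Ciita* are at 71.0% in TopBP1cKO replicate 2, where the cell cycle genes are at 359%, and at 96.5% in TopBP1cKO replicate 1.

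The genes most like the classical chains and *Cd74* over the 4 libraries were *Ccdc85b*, *Sdccag8*, *Tmub1*, *Chkb* and *Polr1d*, whose centred log2 CPM differed from the mean class II profile by a root mean square of 0.00641 to 0.0154. By the same measure *Cd74* differed by 0.00982, *H2-Aa* by 0.0102, *H2-Ab1* by 0.0133 and *H2-Eb1* by 0.0139, although these 4 made the mean profile themselves. *H2-Oa* followed with 0.0707, *H2-DMa* with 0.0805, *H2-DMb1* with 0.0852 and *H2-Ob* with 0.107. *H2-DMb2* differed by 0.195 and *Ciita* by 0.366, which is farther than the median of all genes considered, 0.247. Those most like *Ciita* were *Uggt1*, *Agtpbp1*, *Sanbr*, *Hif1a* and *Lcp2*, at 0.00682 to 0.0139. With 4 libraries that share their depth and composition, such likeness is a description only.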

How the data were processed

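The 4 libraries were made with the CORALL RNA-seq V2 kit, and RNA was taken with TaKaRa RNAiso Plus per the labels or a RNeasy kit per the study's methods. The authors deposited whole-number read counts per transcript without normalization. The submitters' processing notes name fastp, STAR, Salmon, GATK and GRCm39, without roles or versions. The rule for reads shared by transcripts is not given in the sources used here. Library totals ran from 14561583 to 15193831 counts, and intervals and floors (3 counts) cover counting error only.

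Counts of 137259 transcript rows were summed per symbol. After filterByExpr, 12393 genes were tested with TMM by the quasi-likelihood test of edgeR 4.0.16 (R 4.3.3). The common dispersion was 0.0230. SEs were taken from the F statistic and the fold change. DESeq2 1.42.0, limma 3.58.1 and scipy 1.17.1 served alternatives and exact tests. The fit was tested on simulated data. All members were named, and from the pathway lists the extremes and the genes past an unadjusted threshold of 0.05. Other genes named with values were picked for their roles after the values were seen, and cell markers are given by list. Members and lists were chosen with earlier results of these data known.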

Additional observations from a re-analysis of the deposited data

How the results depend on the processing

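Over 11 alternatives that kept all 4 libraries and used no replicate block (other normalizations, filters, tests and depth, or the *H2-DMb* copies merged), each of the 10 genes kept the sign of its log2 fold change wherever it was fitted by itself, and no FDR fell below 0.562. The *H2-DMb* copies merged gave −0.062, with the sign of *H2-DMb1* and not that of *H2-DMb2*. The number of the 10 at FDR < 0.05 was 0 under each of them, and ran from 0 to 9 with a library left out. The median of the 10 ran from −0.52 to −0.023 in the same fits, the ends being those without TopBP1cKO replicate 1 and replicate 2. With a library left out, *H2-DMb2* ran from −0.088 (without TopBP1cKO replicate 1) to 0.26 and *H2-DMb1* from −0.34 to 0.088 (without TopBP1cKO replicate 2). The 6 genes with groups that did not overlap became 5 with DESeq2 size factors, 4 with upper quartile normalization, 5 with TMM factors set without the members and 2 with library totals, a scaling added after the values were seen. The share over all genes was counted with TMM only (43.6%), so that whether it fell likewise is not known. Over all genes, 13 were called with all libraries, from 1 (without WT replicate 2) to 2625 (without TopBP1cKO replicate 1) with 1 left out, 234 by the likelihood ratio test of edgeR and 137 by the DESeq2 Wald test.

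Across genes, libraries with the same replicate number deviated from the means of their groups with a correlation of −0.046. With 2 libraries per group, and TopBP1cKO replicate 2 apart from the others, this value cannot exclude a pairing. With a replicate block, 504 genes and 0 of the 10 were called, with a median of −0.29. Depth did not limit the classical chains, which had at least 59426 counts per library, but the middle and downstream *Ciita* starts rest on 29 to 304 counts.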
